A study of Mus musculus with 4 samples.

Results

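Distal reporter elements that hold 2 or more copies of the AP-1 recognition sequence are described here: 1182 of the 24232 elements listed for activated mouse Th17 cells. An element belonged to the set when its centre lay more than 1 kb from every protein-coding transcription start site (TSS) and its sequence held at least 2 non-overlapping exact copies of the 7-base AP-1 consensus (TGACTCA, or TGAGTCA when read from the other strand). The choice used sequence and position alone, not the reporter values. Of the 14709 distal elements, 9247 held no match and 4280 held 1.

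AP-1 is a family of dimeric basic leucine zipper proteins built from FOS, JUN, BATF and related subunits, and its TPA-response element is nearly palindromic, so that both strands present almost the same letters. Signalling from the T cell receptor and CD28 raises these proteins within hours of T cell activation. In Th17 cells, which make IL-17, BATF pairs with JUN proteins and with IRF4 to open chromatin at lineage genes, and the BACH proteins bind overlapping sites as repressors. AP-1 sites are among the most frequent sequences in enhancers of activated lymphocytes.

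The data are self-transcribing active regulatory region sequencing (STARR-seq), in which genomic fragments are cloned into a reporter transcript so that an active fragment raises its own copy number in RNA. The series has 1 group of 4 libraries, labelled biological replicates 1 to 4, of primary C57BL/6NJ mouse T cells given a plasmid (episomal) library by transient transfection. The cells had 3 days of anti-CD3e at 0.25 µg/mL, anti-CD28 at 1 µg/mL, anti-IL-4 at 2 µg/mL, an antibody to interferon gamma and IL-6, 30 µg of nucleic acid went into each library, and the size range was 200 to 400. Sex and age are not given, all 4 libraries carry the same donor label, and no untreated or other cell type is in the series. The table gives 1 log2 fold change per element for the 4 libraries together, so no value per library, no spread between libraries and no depth can be given, and no comparison below is a test over samples. The sign is taken as reporter RNA over input, which the file does not state, and "higher" below means a positive value and "lower" a negative one. The table lists elements with q under 0.01 alone, so every share is a share of listed elements. With no expression values, the labelled cell type could not be set against markers.

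The sequences that carry the results are given first, from the GRCm38 (mm10) genome, plus strand, 5′ to 3′, in lower case with each AP-1 match in capitals. The first 5 windows come from members with 5 or more matches, chosen because a unit of sequence recurs along the element and brings the match with it.
Slc28a3, chr13:58654503-58654785: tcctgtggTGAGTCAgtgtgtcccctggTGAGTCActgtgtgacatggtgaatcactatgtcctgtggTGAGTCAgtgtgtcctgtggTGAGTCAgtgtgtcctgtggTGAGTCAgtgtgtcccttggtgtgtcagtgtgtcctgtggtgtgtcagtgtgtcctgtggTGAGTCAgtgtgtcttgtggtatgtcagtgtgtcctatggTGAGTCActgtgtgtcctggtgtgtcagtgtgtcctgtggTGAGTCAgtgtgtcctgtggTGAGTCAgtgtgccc
Twsg1, chr17:65961711-65962006: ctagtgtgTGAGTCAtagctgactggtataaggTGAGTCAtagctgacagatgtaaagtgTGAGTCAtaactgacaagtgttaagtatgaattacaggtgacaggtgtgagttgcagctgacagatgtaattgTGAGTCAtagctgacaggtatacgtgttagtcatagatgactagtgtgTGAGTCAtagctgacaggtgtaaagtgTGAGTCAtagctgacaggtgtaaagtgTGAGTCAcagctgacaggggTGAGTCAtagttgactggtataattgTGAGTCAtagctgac
Nell2, chr15:95276660-95276882: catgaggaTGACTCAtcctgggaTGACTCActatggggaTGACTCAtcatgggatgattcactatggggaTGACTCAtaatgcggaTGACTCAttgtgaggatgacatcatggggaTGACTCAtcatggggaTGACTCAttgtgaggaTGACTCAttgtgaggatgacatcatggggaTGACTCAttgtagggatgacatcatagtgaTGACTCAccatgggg
Oxsr1, chr9:119265908-119266170: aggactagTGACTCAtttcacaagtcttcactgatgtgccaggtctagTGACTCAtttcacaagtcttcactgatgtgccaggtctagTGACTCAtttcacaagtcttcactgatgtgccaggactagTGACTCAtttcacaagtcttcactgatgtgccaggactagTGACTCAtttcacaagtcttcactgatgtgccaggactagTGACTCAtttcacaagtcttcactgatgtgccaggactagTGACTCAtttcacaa
Dop1b, chr16:93778495-93778677: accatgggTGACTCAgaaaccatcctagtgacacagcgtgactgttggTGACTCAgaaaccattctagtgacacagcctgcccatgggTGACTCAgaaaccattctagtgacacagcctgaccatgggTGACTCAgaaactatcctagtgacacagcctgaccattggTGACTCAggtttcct
The next 3 windows come from elements with values above 4, each with 2 or 3 copies of a longer unit.
Vmn2r3, chr3:64251603-64251699: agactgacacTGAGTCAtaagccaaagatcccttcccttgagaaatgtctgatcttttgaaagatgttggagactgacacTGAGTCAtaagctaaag
Ncald, chr15:37607625-37607781: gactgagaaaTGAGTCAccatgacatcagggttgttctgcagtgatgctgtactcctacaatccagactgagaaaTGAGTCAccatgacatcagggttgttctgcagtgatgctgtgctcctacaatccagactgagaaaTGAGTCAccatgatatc
Kdm1a, chr4:136570125-136570221: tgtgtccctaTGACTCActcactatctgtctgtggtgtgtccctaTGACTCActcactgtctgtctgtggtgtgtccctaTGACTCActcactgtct
Examples of the closest pairs, in which matches abut or are parted by a single base, follow.
Il7r, chr15:9556066-9556177: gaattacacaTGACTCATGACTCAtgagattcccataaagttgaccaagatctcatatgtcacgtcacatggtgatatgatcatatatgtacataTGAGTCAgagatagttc
Il33, chr19:29887587-29887640: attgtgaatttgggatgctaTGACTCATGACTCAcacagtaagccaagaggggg
Klf7, chr1:64305724-64305777: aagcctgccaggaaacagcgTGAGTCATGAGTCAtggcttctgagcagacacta
Erg, chr16:95436833-95436886: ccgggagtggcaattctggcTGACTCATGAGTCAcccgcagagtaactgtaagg
Cemip2, chr19:21863700-21863762: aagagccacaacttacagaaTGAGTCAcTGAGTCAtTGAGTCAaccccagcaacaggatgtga
Matches whose surroundings recur at several places in the genome are shown by 4 members of 1 such family, and by copies beside Tmem92 and in the Raet1 cluster.
Drc1, chr5:30284995-30285066: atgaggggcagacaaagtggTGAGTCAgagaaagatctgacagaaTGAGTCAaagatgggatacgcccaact
Ndufa12, chr10:94242952-94243023: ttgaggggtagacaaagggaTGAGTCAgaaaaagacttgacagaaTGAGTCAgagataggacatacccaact
Dph5, chr3:115861188-115861259: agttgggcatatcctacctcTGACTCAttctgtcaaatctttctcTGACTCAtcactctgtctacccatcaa
Jam2, chr16:84790778-84790848: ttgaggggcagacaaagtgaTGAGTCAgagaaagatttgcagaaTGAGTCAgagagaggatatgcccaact
Tmem92, chr11:94803583-94803712: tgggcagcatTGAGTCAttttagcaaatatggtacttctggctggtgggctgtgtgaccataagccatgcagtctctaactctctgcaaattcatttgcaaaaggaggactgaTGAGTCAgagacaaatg
Tmem92, chr11:94819177-94819306: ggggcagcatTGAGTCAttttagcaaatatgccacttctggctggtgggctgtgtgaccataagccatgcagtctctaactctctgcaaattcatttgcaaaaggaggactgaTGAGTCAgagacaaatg
Raet1d, chr10:22357549-22357614: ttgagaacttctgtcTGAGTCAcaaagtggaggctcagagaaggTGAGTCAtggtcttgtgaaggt
Raet1e, chr10:22169282-22169347: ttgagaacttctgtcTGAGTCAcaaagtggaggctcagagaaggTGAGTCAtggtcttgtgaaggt
Pairs outside repeated units are shown by members near genes of the Th17 and AP-1 lists, near Klf6, the gene with the most members, and near Tnfrsf13b, where a pair of members stands close together. The surroundings of a match near Il23r recur in the member near Gprc5a.
Nfkbiz, chr16:55723368-55723437: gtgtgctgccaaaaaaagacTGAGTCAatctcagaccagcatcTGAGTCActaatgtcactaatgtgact
Fosl2, chr5:32055828-32055904: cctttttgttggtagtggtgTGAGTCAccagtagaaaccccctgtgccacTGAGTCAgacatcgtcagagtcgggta
Maf, chr8:115771188-115771247: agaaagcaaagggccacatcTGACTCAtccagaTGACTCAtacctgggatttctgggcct
Runx1, chr16:92620912-92620979: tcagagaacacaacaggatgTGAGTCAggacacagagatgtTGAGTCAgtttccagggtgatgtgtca
Il23r, chr6:67459583-67459674: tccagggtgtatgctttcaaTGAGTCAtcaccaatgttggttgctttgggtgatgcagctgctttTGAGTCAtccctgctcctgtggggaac
Bach2, chr4:32391435-32391536: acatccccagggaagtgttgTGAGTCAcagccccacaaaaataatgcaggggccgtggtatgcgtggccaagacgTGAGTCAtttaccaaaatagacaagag
Klf6, chr13:5845241-5845300: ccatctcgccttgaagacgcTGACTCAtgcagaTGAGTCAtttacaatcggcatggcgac
Tnfrsf13b, chr11:61120162-61120236: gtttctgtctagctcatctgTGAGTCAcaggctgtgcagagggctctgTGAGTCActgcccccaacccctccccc
The last windows show lower members, whose matches have the same letters as those of higher ones.
Rngtt, chr4:33338109-33338170: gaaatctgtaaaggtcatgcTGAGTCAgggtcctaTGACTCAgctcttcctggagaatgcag
Fam196b, chr11:34395880-34395975: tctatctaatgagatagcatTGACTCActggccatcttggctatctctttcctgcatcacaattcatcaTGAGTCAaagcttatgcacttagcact

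Nearly all members were higher. Of the 1182, 1094 (92.6%, exact binomial 95% interval 90.9% to 94.0%) had a positive value and 88 a negative one, against 49.4% of all listed elements, 72.7% of all distal elements, 63.8% of distal elements with no match and 86.6% of those with 1. These intervals reflect the number of elements only, since the cultures cannot be separated. The median log2 fold change of members was 1.30 in the authors' deposited table (95% interval of the median 1.24 to 1.34), beside 1.16 for all distal elements. No member lay near 0: the smallest positive value in the authors' deposited table was 0.52 and the negative value nearest to 0 was -0.67. Listing at q under 0.01 leaves out weak values in any set of elements, so this gap is not particular to members.

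The share of higher elements was larger with more matches. It was 92.0% of 989 elements with 2 matches (90.1% to 93.6%), just inside the rule, and 86.6% of 4280 with 1 (85.6% to 87.6%), just outside it. With 3 matches it was 94.4% of 161, and with 4 or more it was 32 of 32, for which the interval starts at 89.1%. The intervals for 2 and 3 matches overlap, so that step is within counting error. Medians in the authors' deposited table were 1.28 for 2 matches, 1.30 for 3 and 1.87 for 4 or more. At the other edge of the rule, 18 of the 22 members centred 1 to 1.5 kb from a coding TSS were higher, and 15 of the 16 elements with 2 or more matches at 0.5 to 1 kb. Among all promoter-proximal elements with 2 or more matches, 53 of 92 (57.6%) were higher, against 11.0% of the 8579 promoter-proximal elements with none. The promoter elements were longer and richer in GC, with medians of 938 bp and 57.9% GC for those with 2 or more matches, against 550 bp and 46.5% for members.

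**Figure D1:**
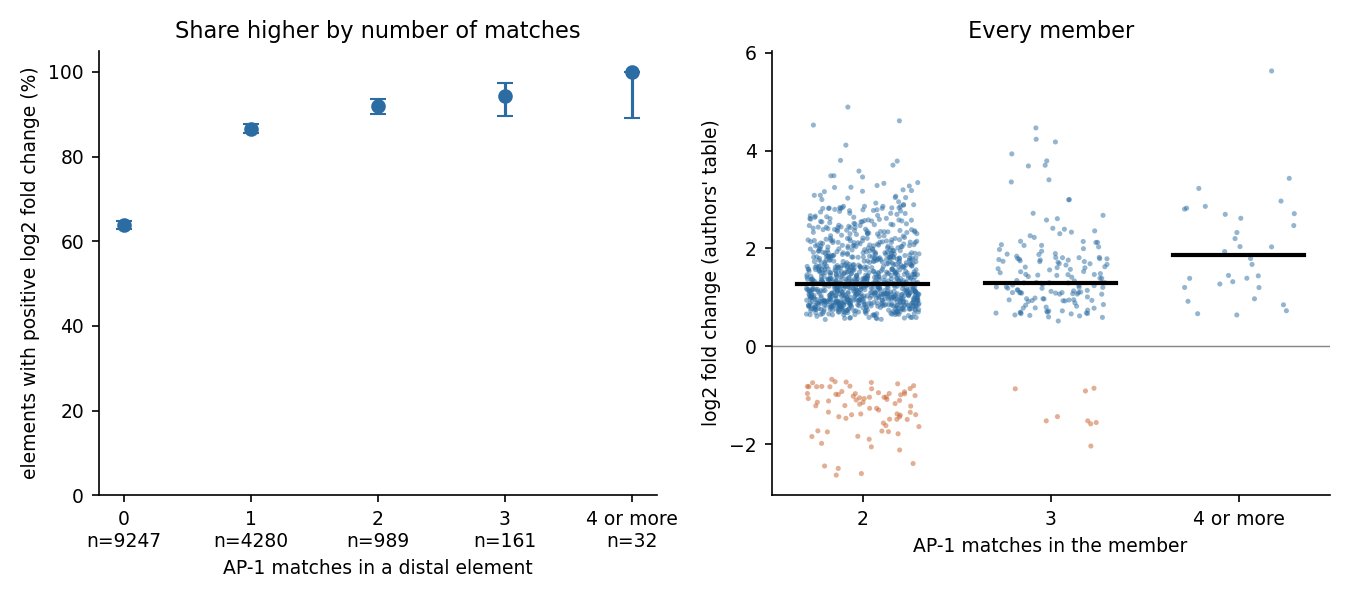
Left, share of distal elements with a positive log2 fold change against the number of AP-1 matches, with exact 95% binomial intervals and the number of elements under each point; right, the log2 fold change of every member in the authors' table by number of matches (blue higher, orange lower, black bar the median). The share goes from 63.8% with no match to 86.6% with 1 and 92.0% with 2, and all 32 members with 4 or more lie above 0.

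Members were higher more often, but not by more. Among higher elements alone, the median in the authors' deposited table was 1.60 for those with no match, 1.38 for those with 1 and 1.35 for members (1.31 to 1.40). Members were longer than elements with no match (median 550 bp against 425 bp) and a little lower in GC (46.5% against 48.3%). Within every one of 10 GC deciles of distal elements the share of higher members exceeded that of elements with no match and that of elements with 1. The same held in all 5 length quintiles. In the GC-richest decile 16 of 25 members were higher (64.0%), against 14.4% of 1303 elements with no match. In the GC-poorest it was 97.3% of 111 against 88.7% of 909. Among higher elements the members' median was below that of elements with no match in 10 of 10 GC deciles and 4 of 5 length quintiles. Elements with no match, weighted to the members' GC and length, would be higher in 72.9%, so members stood 19.6 percentage points above them. Weighted elements with 1 match would be higher in 86.1%, which leaves 6.45 points.

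Base composition was also set against a control sequence. The consensus read backwards without complementing (ACTCAGT or ACTGAGT) has the same letters and is not an AP-1 site. Of 100 distal elements with 2 or more of these and under 2 AP-1 matches, 84 were higher (75.3% to 90.6%), with a median of 1.19 in the authors' deposited table. Where such elements held no AP-1 match at all, 29 of 35 were higher (82.9%, 66.4% to 93.4%). The control therefore also lay above the 63.8% of elements with no match. After weighting for GC and length, the 100 elements stood 11.2 points above, compared with 19.6 points for members. Of those 100, only the 35 held no AP-1 match and the rest held 1. The 35 were not weighted on their own.

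Matches in a member lay close together. The 1182 members held 2630 matches, with exactly 2 in 989 members, which made 1448 neighbouring pairs. The median spacing, from the centre of one match to the centre of the next, was 75 bp, with a middle range of 36 to 193 bp and extremes of 7 and 1129 bp. Neighbours lay within 50 bp in 36.3% of pairs, against 22.4% of the 107 pairs of the reversed consensus, whose median spacing was 148 bp. Leaving out the 33 members with a repeated unit moved the median to 82 bp. The most frequent single spacings were 40 bp with 27 pairs, 12 and 20 bp with 23 each, and 11 and 25 bp with 22 each. At 40 bp, 14 of the 27 pairs came from repeated units, and the 27 pairs came from 14 members. The 11-bp pairs came from 22 different members with none from a repeated unit, and 15 of the 22 pointed the same way.

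Members with close matches were more often higher. When the closest pair lay within 100 bp, 694 of 722 were higher (96.1%, 94.4% to 97.4%), against 400 of 460 (87.0%, 83.5% to 89.9%) when it lay farther apart. By class the share was 95.7% of 162 at 7 to 20 bp, 97.2% of 290 at 21 to 50 bp, 95.2% of 270 at 51 to 100 bp, 89.9% of 189 beyond that up to 200 bp and 84.9% of 271 beyond 200 bp. The 3 closest classes could not be told apart by their intervals, and the few members with touching matches are given below. With exactly 2 matches the order was the same, from 97.3% of 220 at 21 to 50 bp to 85.3% of 265 beyond 200 bp. Members with distant matches were longer, with a median of 650 bp beyond 200 bp against 475 bp at 21 to 50 bp. Among members of middling length (475 to 625 bp), 98.9% of 94 at 21 to 50 bp and 85.4% of 96 beyond 200 bp were higher. Among longer ones (650 to 1500 bp) the same classes had 92.7% of 55 and 82.8% of 151, and among shorter ones 97.9% of 141 and 23 of 24. The median value in the authors' deposited table was 1.39 at 21 to 50 bp (1.31 to 1.48) and 1.15 beyond 200 bp (1.06 to 1.25), intervals that do not overlap. Within each class of length the intervals overlapped. Among members of middling length the medians were 1.41 (1.22 to 1.63) and 1.17 (1.01 to 1.30) in the authors' deposited table. Among longer ones they were 1.30 (1.09 to 1.65) and 1.11 (0.96 to 1.23) there. Among shorter members the median ran the other way, from 1.39 (1.31 to 1.51) to 1.65 over 24 members (1.03 to 2.05) in the authors' deposited table.

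**Figure D2:**
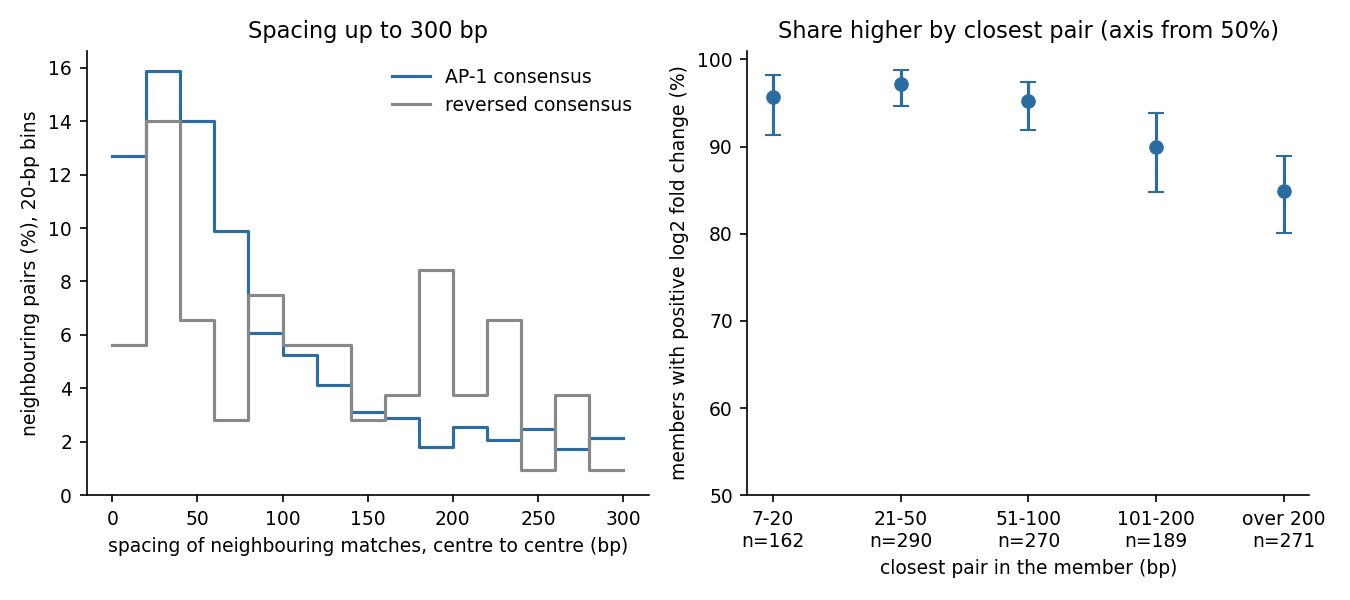
Left, spacing of neighbouring matches up to 300 bp in 20-bp bins, as a percentage of all 1448 pairs of members (blue) and of 107 pairs of the reversed consensus (grey); right, share of members with a positive log2 fold change by the distance of their closest pair, with exact 95% binomial intervals and an axis that starts at 50%. AP-1 pairs are most frequent below 60 bp, and the share of higher members falls from 97.2% at 21 to 50 bp to 84.9% beyond 200 bp.

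The matches that abut, 7 bp apart, were found in 5 members, and all 5 were higher. That near Il7r, the receptor of the T cell survival cytokine IL-7, had 2.23 in the authors' deposited table and 1 more match 78 bp on. The one near Il33, an alarmin cytokine, had 1.96 there. Those near Klf7, Erg and Gadd45g had 1.06, 0.85 and 0.63 in the authors' deposited table. The values span most of the usual range of members, and the letters differ: the pairs near Il7r and Il33 repeat TGACTCA, the pair near Klf7 repeats TGAGTCA, and the pair near Erg joins both forms. A row of 3 matches with a single base between neighbours stood near Cemip2, a hyaluronidase, at 1.77 in the authors' deposited table, and pairs 8 bp apart near Pde4d and Pard6b had 1.83 and 1.29 there. The pair 9 bp apart near Cox7c had 1.36 in the authors' deposited table. Of the 13 members with pairs 10 bp apart, that near Slc4a11, taken for its small q, had 2.57 there. Others at that spacing included Nmur2 at 2.38 and Usp6nl at 1.08 in the authors' deposited table.

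Pairs that pointed the same way were higher somewhat more often. Neighbours pointed the same way in 801 of 1448 pairs (55.3%), and in 52.8% of 1365 once pairs from repeated units were set aside. Of members with exactly 2 matches, 94.2% of 515 with the same direction were higher (91.8% to 96.0%) and 89.7% of 474 with opposite directions (86.6% to 92.3%). The lower members numbered 30 and 49. These intervals overlap narrowly, and the medians were 1.28 for both in the authors' deposited table. For pairs within 100 bp, spacings near a whole number of helical turns had 96.7% of 302 higher, and the other spacings 94.9% of 257, with overlapping intervals.

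In 33 members neighbouring matches were parts of a repeated unit, here meaning that at least 60% of the 24 bases around them (12 on each side) were the same. All 33 were higher, against 92.3% of the other 1149, and their median in the authors' deposited table was 1.95 (1.53 to 2.68) against 1.28 (1.22 to 1.32). They made up 4 of the 10 highest members and 7 of the 10 with the most matches. Among the members with 3 or more matches, the 17 with a repeated unit had a median of 2.68 (1.79 to 3.00) and the other 176 a median of 1.31 (1.20 to 1.46) in the authors' deposited table. The rise of the median at 4 or more matches divides in the same way: it was 2.70 for the 9 with a repeated unit and 1.44 for the 23 without. This grouping was made after the values were seen.

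The highest member, with the most matches, was an intergenic element at chr13:58654251-58654875, 43686 bp upstream of Slc28a3, which encodes a nucleoside transporter. It held 18 matches, all written TGAGTCA, at spacings of 20, 40 or 60 bp, and had 5.63 in the authors' deposited table (q = 3.35e-11). As the first window shows, units of about 20 bases recur there with single-base changes that spell a match in some units and not in others. None of its bases was soft-masked in the RefSeq genome and no near-identical copy was found elsewhere. The element 10574 bp from Twsg1, a BMP-binding protein gene, held 15 matches many of them 25 to 27 bp apart, and had 3.43 in the authors' deposited table. Nell2, a secreted glycoprotein gene, had an intronic element with 10 matches in units of about 15 bases and 2.70 there. Oxsr1, a stress-response kinase gene, had an element with 7 matches exactly 40 bp apart, and Dop1b one with 5 matches exactly 40 bp apart. Their values in the authors' deposited table were 2.20 and 2.80. An element in an untranslated region of Dera held 7 matches, 5 of its 6 spacings 12 bp, and had 2.97 in the authors' deposited table. The most matches without a repeated unit stood near Usp7, a deubiquitinase gene: 6 matches with 1.67 in the authors' deposited table. Nsmf with 5 matches 36 or 71 bp apart had 1.39, and Cstf2t and Araf with 4 had 3.23 and 2.71 in the authors' deposited table. Cstf2t and Araf were taken by smallest q from the members with 4 matches, so their values do not show how number and size go together. Others with 4 matches included Arid5a at 2.86 and Dio2 at 0.64 in the authors' deposited table.

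**Figure D3:**
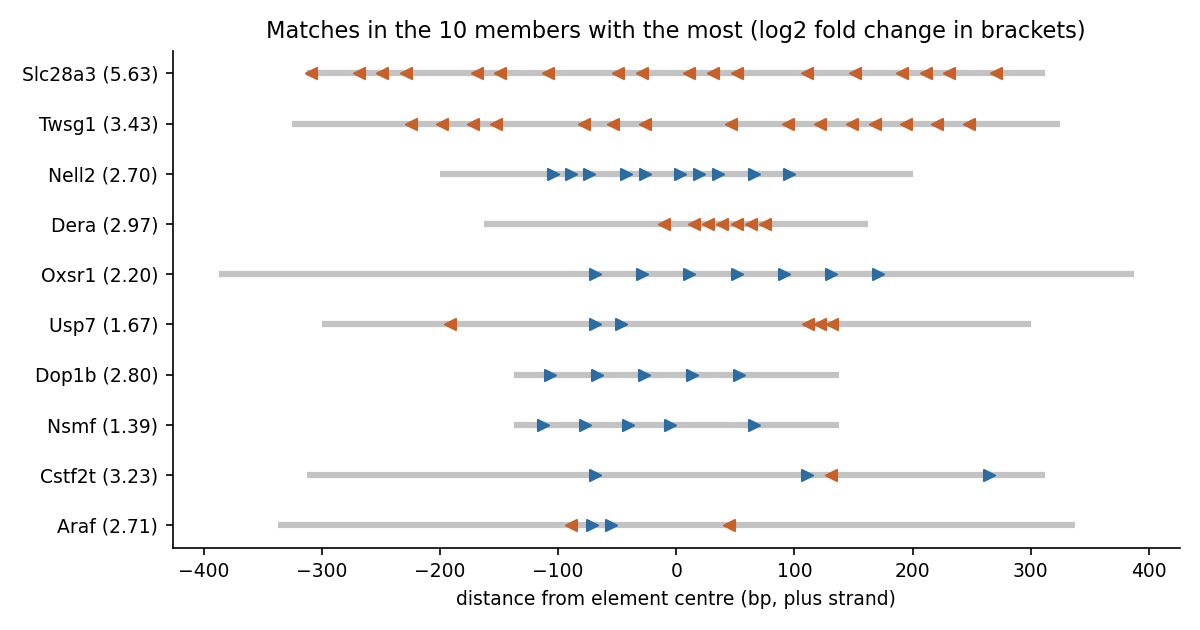
Map of the 10 members with the most AP-1 matches, to scale, with distance from the element's centre in bp on the plus strand; each grey bar is an element, each triangle a match (blue TGACTCA pointing right, orange TGAGTCA pointing left), and the number after each nearest gene is the log2 fold change in the authors' table. In 7 of the 10 every match points the same way, with 18 matches in the element near Slc28a3 (5.63).

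Among the other highest members, Vmn2r3, a vomeronasal receptor gene, had an intergenic element with 2 matches in units 70 bp apart and 4.89 in the authors' deposited table. An intron of Ncald, a neuronal calcium sensor gene, held 3 matches 65 bp apart with 4.46, and an intron of Kdm1a, the histone demethylase LSD1, held 3 matches 35 bp apart with 4.23 in the authors' deposited table. Neither element had a near-identical copy. Ralgps2, Nr3c2 (the mineralocorticoid receptor) and Rnf157 had 4.18, 3.93 and 3.80 in the authors' deposited table without a repeated unit. Tcp10a had 4.11 in the authors' deposited table with 3 near-identical copies of its element elsewhere. Elements nearest Raet1d and Raet1e, which encode ligands of the activating receptor NKG2D, had 4.61 and 4.52 in the authors' deposited table, and the 66-base windows around their matches are identical. Each has 1 near-identical copy (95% identity over 90% of its length), so their reads may not be separable, and how such reads were treated is not given in the sources used here. Of all members, 1168 had no such copy.

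Matches also recurred with their surroundings at unlinked places. Comparing the 24 flanking bases of every match with those of every other member, 20 or more identical, gave 15 families with 59 members (4.99%), of which 55 were higher. The largest 2 had 11 members each, with 10 higher in both. In the first, which takes in the elements near Drc1, Ndufa12, Dph5 and Jam2, the pair is usually 25 bp apart (median of the closest pair), and the median share of soft-masked bases was 60.2%, against 9.20% for all members. The 72-base windows near Drc1 and Ndufa12 agree at 60 bases, and the window near Drc1 agrees at 62 with that near Dph5 once the latter is turned round. Their values were not alike: Drc1 had 2.63, Dph5 1.61, Ndufa12 1.58 and Jam2 1.01 in the authors' deposited table, while Rab31, whose matches lie 315 bp apart, had -1.12. The second family ran from 2.44 near H2-Q1 down to -2.12 near Mrtfa, a coactivator of serum response factor, in the authors' deposited table. Another, with 8 members and its pair about 143 bp apart, was higher throughout, from 1.25 near M1ap to 2.60 near Zfp52 in the authors' deposited table. The repeats were not named, as no repeat annotation was used here.

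Some copies lay in 1 neighbourhood. The elements near Tmem92, 103 bp between matches in each, had 3.35, 2.83 and 1.23 in the authors' deposited table. The windows of the first pair differ at 3 of 130 bases, and the element with 1.23 is the longest of the 3 at 775 bp. Elements nearest Gvin1, an interferon-induced GTPase gene, and Olfr693 had 3.49 and 3.48 in the authors' deposited table, both with matches 12 bp apart, and no near-identical copy over the whole element was found. Elements in introns of Mthfs and Mthfsl had 2.30 and 0.62 in the authors' deposited table although each has 1 near-identical copy. These families were picked out after their values were seen.

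Matches sat near the middle of their elements. Dividing the distance from the centre to either end into 5 equal parts, 31.6% of the 2630 matches fell in the innermost part, 26.9% in the next and 6.69% in the outermost. Single matches of elements with 1 match were placed alike, with 33.9% innermost and 5.42% outermost. The reversed consensus was spread more evenly over distal elements, with 22.9% innermost and 16.4% outermost of 1929 matches. In higher members 32.2% of matches were innermost and 6.01% outermost, and in lower members 23.2% and 15.7% of 185. Single matches showed the same contrast, with 35.4% and 4.34% in higher elements and 24.3% and 12.4% in lower ones. The matches of a member together spanned a median of 108 bp (from the start of the first to the end of the last), less than 50% of the element's length in 79.9% of members, and their mean position lay a median of 50 bp from the centre.

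Just outside the elements the excess ended. Over the 500 bp on each side of members the consensus occurred 19.2 times per 100 kb and the reversed consensus 19.4 times. Beside elements with 1 match the rates were 15.1 and 17.6, and beside elements with none 16.0 and 17.2. A further match within 500 bp of the border was present for 16.4% of members and 14.1% of elements with 1 match.

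**Figure D4:**
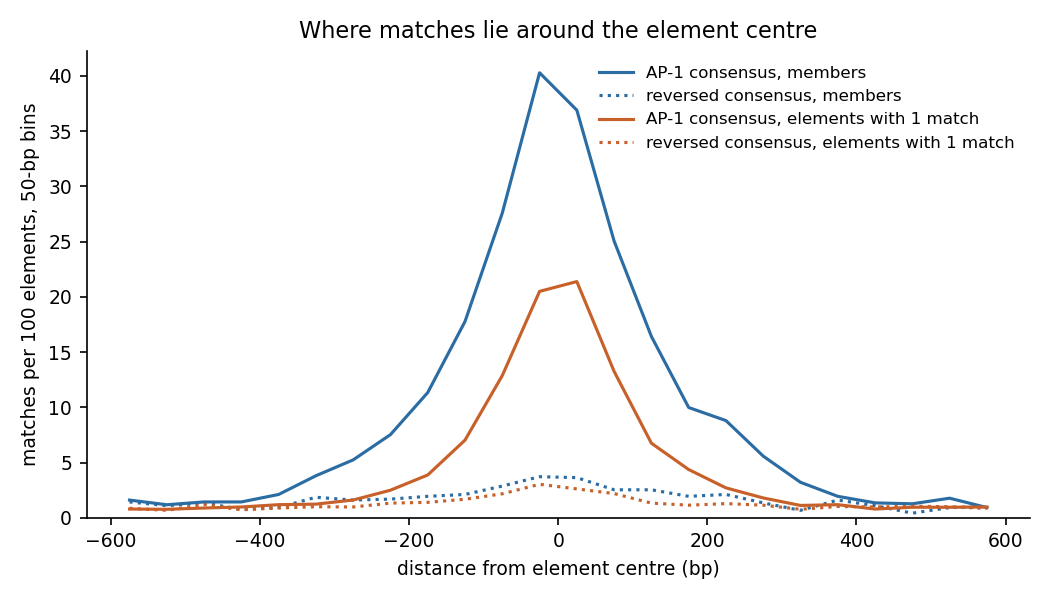
Matches per 100 elements in 50-bp bins against the distance from the element's centre, for members (blue) and distal elements with 1 match (orange); solid lines are the AP-1 consensus and dotted lines the reversed consensus. The AP-1 lines peak at the centre, at 40.3 per 100 members and 21.4 per 100 elements with 1 match. They meet the reversed consensus beyond about 400 bp. That matches lie inside the elements follows from the rule. As elements differ in length, part of a peak in bp follows from it too. The reversed consensus in members is also most frequent beside the centre, at 3.72 per 100.

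Read as TGACTCA, a match in a member was preceded by T in 11.2% of 2604 cases and followed by A in 15.6%. Single matches in other distal elements had 10.8% and 13.8%. In higher members T came before 11.3% of 2421 matches and A after 15.9%, against 9.84% and 12.02% of 183 in lower members. Matches that lacked both made up 74.6% in higher and 79.2% in lower members. Of the 83 members in which no match lacked both a preceding T and a following A, 96.4% were higher, and of the 714 with 2 or more matches that lacked both, 92.0%.

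Sites for other factors were counted on both strands. A BATF and IRF composite in which GAAA adjoins the AP-1 site was present in 60 members (5.08%), and one with 4 bases between them in 57 (4.82%). For these counts any base was allowed at the centre of the AP-1 site. Distal elements with 1 match, weighted to the members' lengths, had 3.70% and 2.27%. With C or G alone at the centre, the adjacent form stood at 2.59 per 100 matches in members and 3.01 in elements with 1 match. The spaced form stood at 1.94 and 2.01, so composites in this stricter form were not denser among clustered sites. With any base at the centre, members with the adjacent form were higher in 59 of 60, against 92.2% of members without it. Those with the spaced form were higher in 53 of 57, against 92.5% without it.

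Of motifs away from AP-1, KLF, CTCF and GATA sites differed in frequency mainly from elements with no match. The elements set beside members were weighted to the members' lengths and not to their GC. IRF pairs (GAAA, 2 bases, GAAA) were in 9.31% of members, 12.8% of weighted elements with 1 match and 15.2% of weighted elements with none. KLF sites (GGGCGGG), frequent in promoters, were in 5.92%, 7.21% and 14.8%. CTCF sites were in 1.02%, 1.28% and 4.70%. NFAT sites (TTTTCCA), for the calcineurin-dependent partner of AP-1, were in 15.5%, 13.0% and 13.0%, and GATA sites (AGATAA) in 22.8%, 22.4% and 19.6%. STAT sites (TTCCNGGAA or TTCNNGGAA) were in 12.4%, 14.1% and 12.1%, and RUNX sites (TGTGGTT) in 17.3% of members and 19.4% of weighted elements with none. The members that held a KLF site were higher in 55 of 70 (78.6%), against 93.4% of those without. Those that held a CTCF site were higher in 7 of 12, against 92.9% without. These shares were not weighted for GC, and members in GC deciles 9 and 10 were higher in 77.7% and 64.0%. With a CREB site (TGACGTCA) 12 of 12 were higher, against 92.5% without, and their median was 1.99 in the authors' deposited table. With a STAT site the median there was 1.51, against 1.28 without.

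Most members lay in introns (602) or between genes (528), with 29 in noncoding exons, 17 in untranslated regions and 6 in coding exons. Coding exons held members rarely: 1.33 per 100 distal elements there, against 8.10 in introns and 8.87 between genes. Higher members made up 94.9% of the intergenic ones, 91.4% of the intronic ones and 4 of the 6 in coding exons, where 15.4% of distal elements with no match were higher. With distance from the nearest coding TSS the share of higher members went from 87.3% of 267 at 1 to 10 kb to 93.4% of 529 at 10 to 50 kb and 95.8% of 191 at 100 to 500 kb, and all 12 beyond 500 kb were higher. Elements with no match showed the same order from a lower start, with 50.6% at 1 to 10 kb and 81.5% at 100 to 500 kb. Every chromosome with members had more higher than lower ones, from 84.9% of 53 on chromosome 17 to 97.7% of 87 on chromosome 1.

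Members had 1072 different nearest coding genes, and 979 of the 1182 lay within 100 kb of that gene's TSS. Only 99 genes were nearest to 2 or more members. Klf6, a zinc finger transcription factor gene induced in activated cells, had the most, 6 members of its 19 distal elements, all higher, with 1.13, 1.43, 1.06, 2.36, 1.76 and 1.37 in the authors' deposited table from chr13:5791976 to chr13:6192600. Of these 5 were intergenic, and the strongest lay 15882 bp from the TSS with 2 matches 13 bp apart and 1 more match farther off. Bach2, whose product binds AP-1-like sites as a repressor and restrains effector T cells, had 3 intronic members with 3.18, 2.09 and 1.62 in the authors' deposited table. In the first pair of these the matches lie 448 and 440 bp apart, and in the last 55 bp. Gm11114, Cited2 and Fndc3a also had 3 members each, all higher. Nearness does not show which gene an element acts on.

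Within 10 kb of one another stood 30 members in 15 groups of 2. In 12 groups both were higher. As 92.6% of all members were higher, this count does not show that neighbours go together. The tightest was upstream of Tnfrsf13b, the TACI receptor gene, where 2 intergenic members within 3250 bp had 2.56 and 3.09 in the authors' deposited table. In the 3 mixed groups a higher and a lower member stood side by side: 2.20 and -1.47 near Spry1, a brake on receptor tyrosine kinase signalling, 1.01 and -0.82 in Nup210, and 0.97 and -0.97 near Ism1, all in the authors' deposited table.

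Genes of the AP-1 family and of T cells were followed in lists that were chosen with earlier results of these data known. Over all linked members (within 100 kb), 899 of 979 were higher (91.8%) with a median of 1.26 in the authors' deposited table, and members made up 7.79 of every 100 linked distal elements. The lists together held 46 members, of which 43 were higher. Counts this small cannot be told from the share over all linked members.

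The AP-1 list, which also takes in MAF and BACH genes, had 9 members near 6 of its 20 genes. All were higher, at 15.3 members per 100 linked distal elements of the whole list. Beside the 3 of Bach2, Fosl2, a FOS-related subunit, had 2.22 and 1.07 in the authors' deposited table, both in an intron of Babam2. Fos itself, the immediate early subunit, had 1.66, and Batf3, a BATF paralogue, had 1.14 there. Maf, a large MAF factor of IL-21 and IL-10 producing helper cells, had 1.37, and the repressor gene Bach1 had 0.81 in the authors' deposited table. The pair near Maf is 13 bp apart and that in the stronger element near Fosl2 30 bp, as their windows show.

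Th17 genes had 13 members near 11 of 32 genes, all higher, with a median of 1.12. The strongest was an intergenic element 98925 bp from Nfkbiz, the gene of a nuclear IkB protein needed for IL-17 production, with 3.25 in the authors' deposited table. Runx1, a partner of the lineage factor RORγt, had an intronic element with 2.38 and a second, 1990 bp from a TSS, with 0.78 in the authors' deposited table. The signature cytokine gene Il17f had 1.12, and Il21, the cytokine that sustains these cells, had 0.95 in the authors' deposited table. Ccl20, the ligand of CCR6, had 1.25, and Il23r, the receptor of the stabilising cytokine IL-23, had 0.87 there. Il1r1, Il10 and Bhlhe40 had 1.07, 0.94 and 1.23 in the authors' deposited table. Of the 63 linked distal elements of these genes with no match, 43 were higher.

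**Figure D5:**
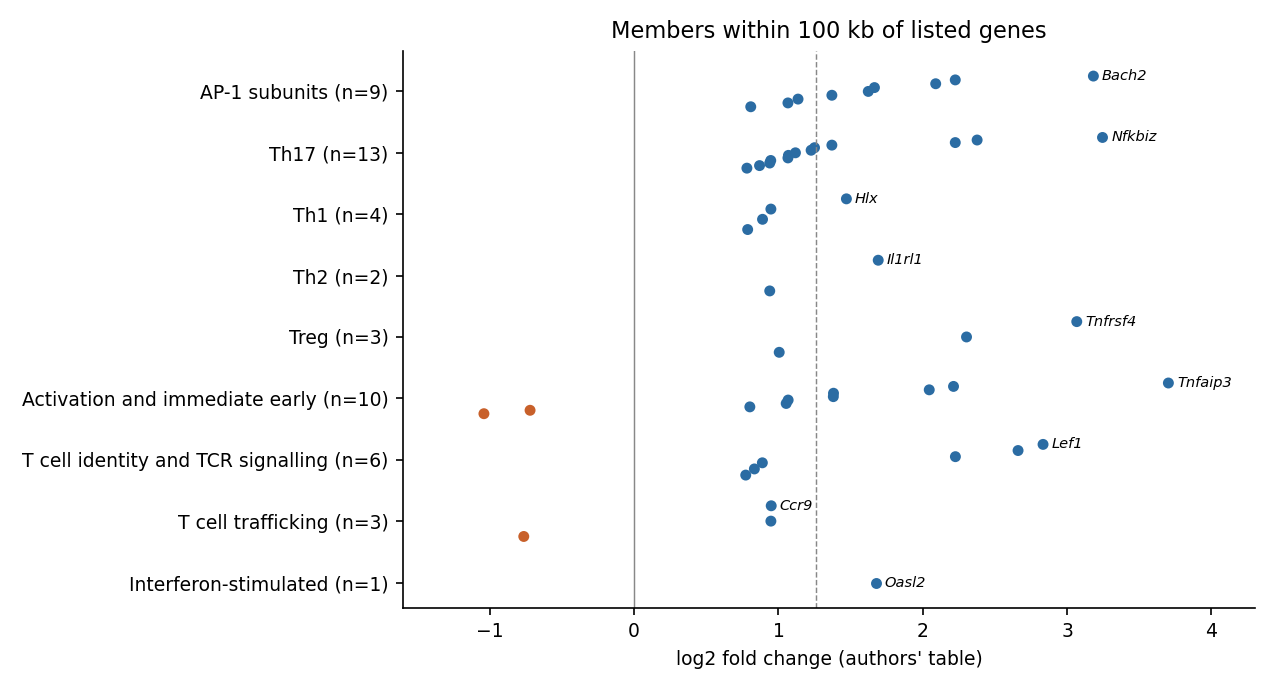
Log2 fold change in the authors' table of every member within 100 kb of a listed gene, by list, with the strongest gene of each named; blue points are higher, orange lower, the solid line is 0 and the dashed line the median of all 979 linked members (1.26). A gene in more than 1 list appears in each, and the 3 lower members are those of Il2, Dusp5 and Itgb2. The AP-1 list also takes in MAF and BACH genes.

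Activation genes had 10 members, 8 higher and 2 lower. Tnfaip3, which encodes the NF-kB brake A20, had 3.70 and 1.05 in the authors' deposited table from elements 52918 and 62543 bp away. Cd44, an adhesion receptor of activated T cells, had 2.21 and 1.38, and the zinc finger gene Egr2 had 2.04 in the authors' deposited table. The MAP kinase phosphatase gene Dusp1 had 1.38 and 1.07, and the survival gene Mcl1 had 0.80 there. The 2 lower ones were near Il2, the T cell growth factor, at -1.04, and near Dusp5, at -0.72 in the authors' deposited table, with matches 357 and 1129 bp apart. The lower Il2 member and the higher Il21 member are neighbours on chromosome 3, 38863 bp apart.

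Genes of T cell identity and receptor signalling had 6 members, all higher: Lef1, the Wnt pathway factor of naive T cells, had 2.83 and Il7r had 2.66 and 2.23 in the authors' deposited table. The kinase gene Fyn had 0.89 and 0.77 and the adaptor gene Lcp2 0.83 there. Treg genes had 3, all higher, with Tnfrsf4 (the costimulatory receptor OX40) at 3.07, Ctla4, an inhibitory receptor, at 2.30 and Nt5e (CD73) at 1.00 in the authors' deposited table. Th1 genes had 4, all higher, among them Hlx at 1.47, Il12rb2 at 0.89 and Stat4 at 0.79 in the authors' deposited table. Among Th2 genes Il1rl1, the receptor of IL-33, had 1.69 in the authors' deposited table. Of the trafficking genes Ccr9 had 0.95 and Itgb2, the beta chain of LFA-1, -0.77 there. The interferon-stimulated gene Oasl2 had 1.67 in the authors' deposited table. No member was linked within 100 kb to the 10 myeloid, 8 B cell and 12 epithelial genes, whose lists had 14, 7 and 7 linked distal elements in all. With so few elements, this absence cannot be told from the share over all linked members. Beyond 100 kb, members 108608 and 394971 bp from Ebf1, of the B cell list, had 1.51 and 0.99 in the authors' deposited table.

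The 88 lower members differed from the higher ones in more than sign. They were longer (median 675 bp against 525 bp) and richer in GC (49.8% against 46.2%), and their closest matches were farther apart (median 172 bp against 65 bp). Values of q under 1e-06 were found for 3.41% of them and for 50.6% of higher members. The lowest were an intergenic element of 225 bp 81786 bp from Ccdc90b, at -2.63, and an intronic element of 250 bp near Fam196b, also inside Dock2, a GTPase activator of lymphocyte migration, at -2.60 in the authors' deposited table. Zfp706, Rngtt (the mRNA capping enzyme), Fbxo34 and Mrtfa followed with -2.49, -2.44, -2.39 and -2.12 in the authors' deposited table. An element on a coding exon of Npat, a regulator of histone genes, had -2.05, and Ggps1, Pcgf5 and Cryl1 had -2.04, -1.98 and -1.90 there. The pair near Rngtt lies 15 bp apart and that near Fam196b 49 bp in windows with full matches, and of all 452 members whose closest pair lay within 50 bp, 15 were lower.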

How the data were processed

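The STARR-seq table combines 4 libraries of activated mouse Th17 cells. Its columns, deposited by the authors, are a log2 fold change per element, a p-value and a q-value, each on mm10 coordinates per the file headers; the aligner, element caller and test are not given in any source used here. It lists 24232 elements; 15 on contigs were left out, and 24217 were annotated. Columns were read with pandas 2.3.3. Sequences came from the GRCm38.p6 RefSeq genome and TSSs of protein-coding transcripts from GENCODE release M21. Near-identical copies (95% identity over 90% of an element) were sought with minimap2 2.31-r1302. Members and lists were chosen with earlier results of these data known. Shares have exact (Clopper-Pearson) 95% intervals, and medians distribution-free ones; no test over elements was made, as elements are not replicates. Weighting of the shares of higher elements used 10 GC deciles by 5 length quintiles of distal elements. Shares with other motifs were weighted by length deciles alone, without GC. The weighting, match search and median interval were tested on simulated data. Elements named are the 10 highest, 10 lowest, 10 with most matches and 10 closest pairs. Ties in number of matches or spacing went to the smaller q. Also named are up to 4 by smallest q per gene list, the 10 genes nearest the most members, and groups within 10 kb. All others were named after their values were seen. Alternatives changed the TSS distance and type, the consensus, repeat masking, thresholds, copies, neighbours, length and chromosome. Depth per library is unknown.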

Additional observations from a re-analysis of the deposited data

How the results depend on the processing

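The number of members, 1182, moved by over 1.5 times under 3 alternatives: 1896 with any base at the centre of the consensus, 193 with 3 or more matches, and 100 with the reversed consensus in place of AP-1. The share of higher members (92.6%) left its interval with 3 or more matches (95.3%), with q under 0.001 (97.2%) and with the reversed consensus (84.0%). The median log2 fold change (1.30) left its own with 3 or more matches (1.39), q under 0.001 (1.44), an absolute value of at least 1 (1.54) and the reversed consensus (1.19). Leaving out each of 20 chromosomes in turn gave 92.1% to 92.9% and 1.29 to 1.30. The 19.6 points over elements with no match became 30.6 when weighted for length alone, 6.45 against elements with 1 match and 11.2 for the reversed consensus. The median spacing (75 bp) became 82 bp without repeated units, an alternative chosen after seeing the data. Neither the median log2 fold change nor the difference in points changed sign under these alternatives. Counts, shares and spacings have no sign that could change. No replicate could be left out, as the table combines the 4 libraries, and no paired analysis was possible because the series has 1 group. The values are those of an episomal reporter, apart from the chromosome. Listing at q under 0.01 hides weak and inactive elements, so shares say nothing about unlisted sequence. Depth per element is unknown.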
